A study of Mus musculus with 35 samples.

Results

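RNA of transposable elements and other repeats was compared between rTg4510 mice of 9 months (5 libraries) and rTg4510 mice of 6 months (6 libraries), all of hippocampus. The 11 libraries were chosen by their titles from the 35 of the series. Of the 1153 rows of the table, 849 reached a count of 10 or more in 5 or more of the 11 libraries and were tested, and the 304 others held 0.130% of the reads. A row is the sum over all copies of 1 repeat subfamily and is called an element here. The tested elements comprised 506 of class LTR, 140 of class DNA, 138 LINEs and 35 SINEs, with 30 in smaller classes.

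By their titles, both groups carry the rTg4510 transgenes, and they differ by age. The background is mixed 129S6 and FVB. The line expresses a mutant human tau from a tetracycline-controlled transgene, which an activator under the Camk2a promoter switches on in forebrain neurons, and is known for neurofibrillary tangles and loss of those neurons. Non-transgenic mice of the same ages (6 libraries each) were used to test whether the change with age differed between genotypes. They and the libraries of 3 months, of both genotypes, also entered the estimate of the spread behind the p-values. The same libraries entered the rescaling factors and the mean of all 35 libraries. The genotype entry in the characteristics differs from the title for 7 of the 11 libraries, which it calls non-transgenic (3 of 6 at 6 months and 4 of 5 at 9 months). The title was followed, and the other reading is given beside the counts. The tissue entry of every library gives a whole brain lysate, while the source name gives hippocampus. No gene rows are among those used here, so neither the tissue nor the tau transgene could be checked against its RNA. Sex is not stated, and nothing in the labels says whether libraries came from separate animals, so p-values measure the spread between libraries.

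LINEs and SINEs move through an RNA copy, SINEs with the enzymes that LINEs encode, whereas LTR elements are the remains of retroviruses and DNA transposons move as DNA. Most copies in the mouse genome are old, mutated and immobile, and many lie inside introns and untranslated regions, so that their reads can come from the transcripts of genes as well as from the elements' own promoters. Release of elements from silencing has been a theme of work on ageing and tauopathy. In bulk RNA, fewer cells of a type and less RNA per cell cannot be told apart.

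Values are normalized counts, obtained by dividing the reads of a row by 1 factor for the library. The factor could be recovered for every library, because all values were whole multiples of the smallest step. Reads in elements, which are part of each library's sequencing depth, ranged from 664400 to 950600 at 6 months, with a mean of 855000 ± 113900 (SD, n = 6). At 9 months they ranged from 476000 to 686300, with a mean of 594000 ± 87560 (SD, n = 5). Library Sample_191, the lowest at 6 months, was the only one of its group below the highest library of 9 months. The difference had an exact two-sided permutation p of 0.00866, adjusted over 11 values per library to 0.0476.

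The sequencing lane follows age in part. At 6 months, libraries Sample_186, Sample_189 and Sample_191 ran in lane 7 and libraries Sample_196, Sample_197 and Sample_198 in lane 8. At 9 months, libraries Sample_199 and Sample_203 ran in lane 8 and libraries Sample_205, Sample_208 and Sample_211 in lane 1. Lane 8 is the only lane with both ages, so that lane 1 and 9 months, and lane 7 and 6 months, cannot be told apart in the other 6 libraries. Library Sample_208 of the rTg4510 mice and library Sample_207 of the non-transgenic mice of 9 months, both in lane 1, stood apart from the libraries of their own title. The log2 ratio of B3 to B3A, related SINEs, was 1.19 to 1.30 in the other 17 non-transgenic libraries of the series and 1.44 to 1.59 in the other 16 rTg4510 libraries. Library Sample_207, at 1.46, lay among the rTg4510 libraries, and library Sample_208, at 1.35, lay between both ranges. The genotype entry calls Sample_207 rTg4510 and Sample_208 non-transgenic, as it also does for libraries that lie with their title. Whether these 2 libraries carry the genotype of their title was not tested. Values without them are given for some elements only, and other results may rest on them as well. Below, values of 9 months are always given in the order Sample_199, Sample_203, Sample_205, Sample_208 and Sample_211.

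**Figure D1:**
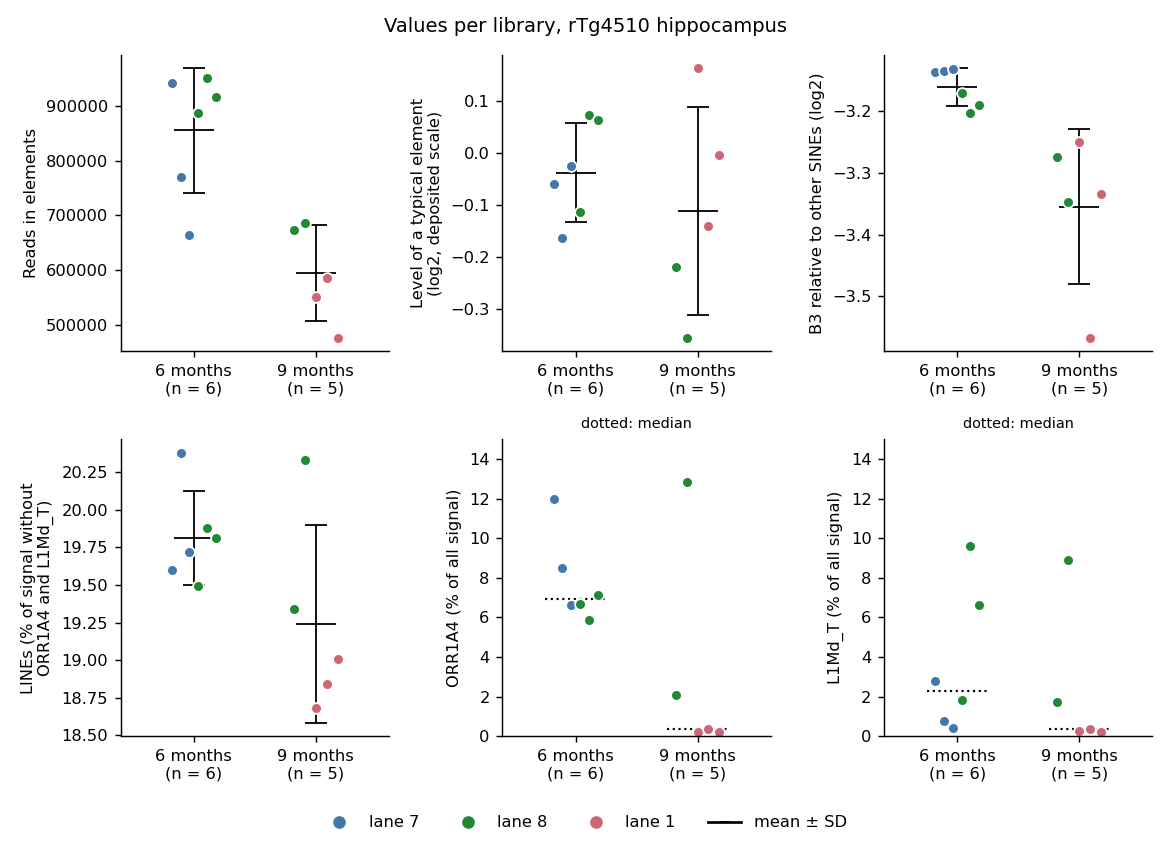
Values of each library (points, coloured by sequencing lane) at 6 months (n = 6) and 9 months (n = 5), with mean ± SD, or a dotted median for ORR1A4 and L1Md_T. B3 relative to the other SINEs lay from -3.57 to -3.25 at 9 months and from -3.20 to -3.13 at 6 months, and ORR1A4 and L1Md_T were each under 0.4% in the lane 1 libraries.

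The level of a typical element on the deposited scale, defined by the median, across elements, of the log2 ratio to the mean of all 35 libraries, was -0.04 ± 0.09 (SD, n = 6) at 6 months. At 9 months it was -0.22, -0.36, 0.16, -0.14 and -0.00 in the 5 libraries. The groups overlapped, and the difference of -0.07 had an exact permutation p of 0.446. The lanes differed in sign, at -0.30 within lane 8 and 0.09 for lane 1 against lane 7.

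On the deposited scale, 0 of the 849 elements passed limma's test with Benjamini-Hochberg adjustment (adjusted p under 0.05), which is 0% called. At an unadjusted p under 0.05 there were 100 elements, 20 higher and 80 lower at 9 months. The count tests gave 0 calls as well, with 89 elements at an unadjusted p under 0.05 in edgeR and 91 in DESeq2. The smallest adjusted p was 0.0877, shared by ORR1A4, MusHAL1 and RLTR47. In all, 562 elements (66.2%) had a negative log2 fold change, and the median was -0.09. Within lane 8 alone 154 elements (18.1%) were called, 2 higher and 152 lower, and for lane 1 against lane 7 alone 30 (3.53%) were called, 25 higher and 5 lower.

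Because the level shared by most elements moved between libraries, the values were also rescaled with TMM factors, which set the bulk of elements level. Fold changes below are on this scale, as log2(value + 1), unless the deposited scale is named, and counts given for single libraries are TMM-rescaled. On this scale 27 elements were higher (3.18% of those tested) and 22 lower (2.59%) at 9 months, 49 in all (5.77%), with 217 at an unadjusted p under 0.05, of which 115 were higher and 102 lower. Fold changes were modest, from 1.07 to 1.58 times among the higher elements, and the lower elements were lower by a factor of 1.09 to 2.08. Each of the 49 had the same direction on the deposited scale, where none passed. The change of scale moves all fold changes by nearly the same small amount, so this is no second piece of evidence. Groups did not overlap for 13 of the 27 and 11 of the 22, where among all tested elements 23 (2.71%) were higher and 16 (1.88%) lower without overlap.

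**Figure D2:**
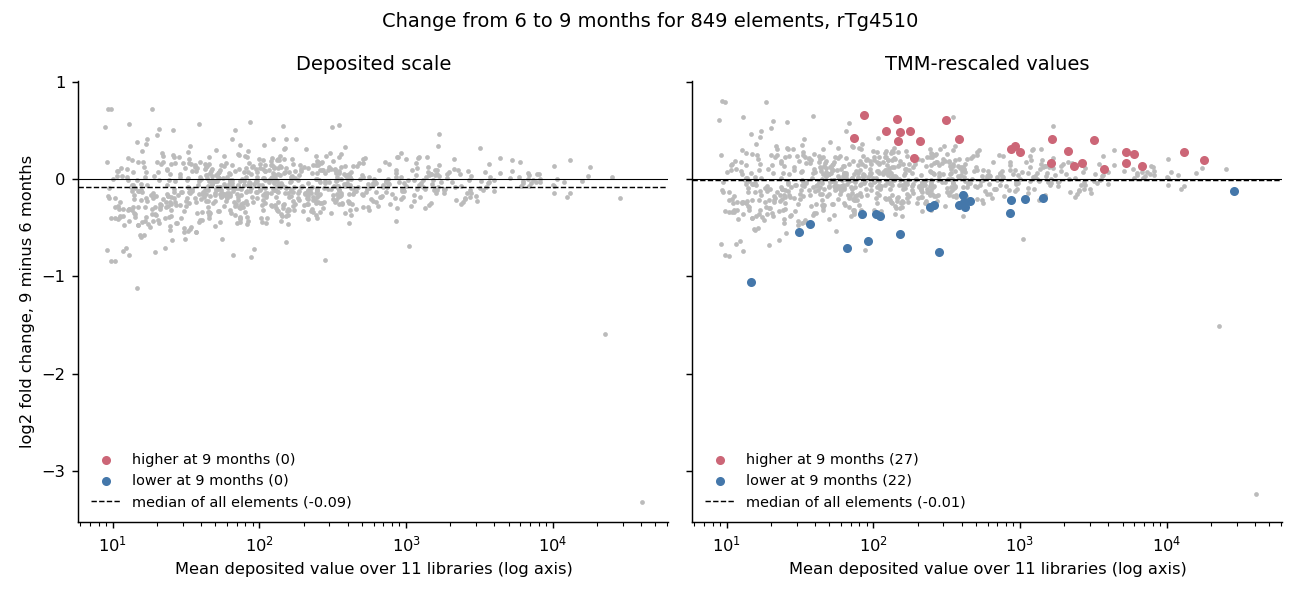
Log2 fold change from 6 to 9 months of 849 elements against their mean deposited value over 11 libraries (log axis), on the deposited scale and after TMM rescaling, with elements past the threshold in colour. The median (dashed) lies at -0.09 on the deposited scale, where 0 elements passed, and at -0.01 after rescaling, where 27 were higher and 22 lower.

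The count of 49 depended on lane and on single libraries. With lane as a term in the model 0 elements were called, with 70 at an unadjusted p under 0.05, and within lane 8 alone 2 (0.236%) were called. For lane 1 against lane 7 alone 23 (2.71%) were called. Without library Sample_189 the count was 2, and without library Sample_208 it was 8, of which 7 were among the 49. Without Sample_211 it was 21, without Sample_205 it was 30 and without Sample_191 it was 31. Without library Sample_199 it was 79. Without both Sample_207 and Sample_208 it was 53, of which 30 were among the 49. With the genotype of the characteristics in place of the title it was 7, of which 2 were among the 49.

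UCON6, a repeat that the table puts in class Unknown, had the smallest adjusted p of all elements. Its count was 185.2, 196.9, 200.7, 185.7 and 200.2 in the 9-month libraries, and at 6 months the lowest was 109, the median 124 and the highest 145. All 9-month libraries lay above all 6-month libraries, in both lanes of each age. The fold change was 0.62 ± 0.12 (log2, SE; adjusted p = 0.00619, limma), and it stayed past the threshold without any 1 of the 11 libraries, with adjusted p from 0.00363 to 0.0237. With lane in the model it was 0.58, with an adjusted p of 0.278.

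Of the 506 LTR elements, 12 rose (2.37%) and 9 fell (1.78%), against 3.18% and 2.59% of all 849 elements. Of the ERVL-MaLR family, old non-autonomous relatives of retroviruses that include the MLT1 group found across mammals and the MT and ORR1 groups of rodents, 6 of 91 rose (6.59%) and 1 fell (1.10%), against the same shares of all elements. The count of members that rose was 0 without library Sample_189, 2 without Sample_205, 3 without Sample_208, 4 without Sample_211 and 10 without Sample_196. It was 1 with no filter on low values and 0 with lane as a term. MLT1H-int, the internal part of an MLT1 element, was at 416, 506, 385, 392 and 390 at 9 months, against a lowest of 225, a median of 267 and a highest of 342 at 6 months. The groups did not overlap, and the fold change was 0.61 ± 0.16 (log2, SE; adjusted p = 0.0304, limma).

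MLT1L stood at 212.8, 259.4, 262.6, 174.1 and 223.9 at 9 months and at 140.6, 160.1 and 175.3 (lowest, median and highest) at 6 months. Only library Sample_208 fell among the 6-month values, and the fold change was 0.49 ± 0.13 (adjusted p = 0.0343, limma). MTA_Mm, of the rodent MT group whose LTRs serve as promoters in mouse oocytes, was at 2574, 2648, 2665, 2616 and 2594 at 9 months, and its highest value at 6 months was 2510. That rise of 0.13 ± 0.03 (log2, SE; adjusted p = 0.0218, limma) was small, but the groups did not overlap. ORR1C1-int was the member that fell, by 0.36 on the log2 scale (adjusted p = 0.0496, limma), with a mean of 99.5 ± 9.20 (SD, n = 6) at 6 months and 77.9 ± 9.96 (SD, n = 5) at 9 months.

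In the ERV1 family 4 of 85 elements rose (4.71%, against 3.18% of all elements) and 1 fell (1.18%, against 2.59%). LTR78B reached 154.3, 198.2, 189.5, 243.3 and 194.3 at 9 months, where the 6-month libraries had a lowest of 120.1, a median of 138.2 and a highest of 153.2. The groups touched without overlapping, and the fold change was 0.49 ± 0.12 (adjusted p = 0.0218, limma). MER90a rose by 0.49 and MER50B by 0.41 on the log2 scale, with 6-month and 9-month means of 112 ± 21.0 and 156 ± 13.2 for MER90a and of 1542 ± 152 and 2057 ± 240 for MER50B (SD, n = 6 and 5). RMER2 rose by 0.22, and LTR48B, at 38.9 ± 6.62 and 26.3 ± 4.21, fell by 0.55 (adjusted p = 0.0496 for both, limma).

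In the ERVL family, to which the mouse retrovirus MERVL belongs, 2 of 81 elements rose (2.47%, against 3.18% of all elements) and 0 fell. MT2B1, an LTR related to that of MERVL, was at 1754, 1843, 1775, 2092 and 1851 at 9 months, all above the 6-month highest of 1727, with a fold change of 0.17 (adjusted p = 0.0378, limma). MER76 rose by 0.39 (adjusted p = 0.0378, limma). MERVL-int, the coding part of MERVL, had a fold change of 0.17 and an adjusted p of 0.0516 in limma and did not pass, although its 9-month libraries (716 to 782) lay above its 6-month libraries (583 to 712).

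ERVK, the family of IAP, ETn and other retroviruses that are young in the mouse, had 0 of 238 elements higher and 7 lower (2.94%), against 3.18% higher and 2.59% lower among all elements. These counts moved with the setting, to 7 higher and 6 lower in DESeq2 and to 5 and 5 without library Sample_196. They were 0 and 1 without Sample_208, 0 and 0 without Sample_189, and 0 and 0 with lane as a term. IAPEY4_I-int, the internal part of an IAP relative, was at 88.33, 48.24, 91.67, 61.46 and 86.01 at 9 months, and at 94.6, 120 and 123 (lowest, median and highest) at 6 months. All 9-month libraries were below all 6-month libraries, with a fold change of -0.64 ± 0.15 (log2, SE; adjusted p = 0.0218, limma). Without library Sample_208 the fold change was -0.58 and did not pass (adjusted p = 0.0649, limma).

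RLTR47 had the largest fall among the 22 elements that passed, -1.06 (adjusted p = 0.0255, limma), at few reads: 17.03, 3.911, 8.672, 6.402 and 14.83 at 9 months against 15.5 to 23.2 at 6 months. Library Sample_199 lay within the 6-month values and library Sample_211 just below them. MYSERV-int fell by 0.38 and RLTR11C_MM by 0.36 (adjusted p = 0.0496 and 0.0466, limma). IAPEz-int, the internal part of the most abundant mobile IAP elements, was at 1449 ± 76.3 (SD, n = 6) and 1425 ± 76.3 (SD, n = 5), with a fold change of -0.02 (adjusted p = 0.780, limma).

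MMERVK10C-int did not pass either, at -0.17 (adjusted p = 0.221, limma). Across the 8 ETn and MusD elements 0 passed in either direction, with a median fold change of 0.11, and across the 19 IAP elements IAPEY4_I-int was the 1 that passed, with a median of 0.01. The median over all 849 elements was -0.01.

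L1, the LINE family that includes the still mobile L1Md groups, had 10 of 119 elements lower (8.40%, against 2.59% of all elements) and 3 higher (2.52%, against 3.18%). The count of lower elements was 0 without library Sample_189, 2 without Sample_208, 3 without Sample_205 or Sample_211, 4 without Sample_186, 5 without Sample_198 and 15 without Sample_199, and it was 0 with lane as a term. L1ME3G, an L1 subfamily shared with other mammals, was at 246.9, 134.3, 201.9, 259.9 and 252.1 at 9 months and at 297, 372 and 440 (lowest, median and highest) at 6 months. The groups did not overlap, and the fold change was -0.75 ± 0.19 (log2, SE; adjusted p = 0.0218, limma). MusHAL1 was at 178.8, 135.6, 102.8, 97.31 and 139.4 at 9 months, and at 6 months its lowest was 175.3, its median 187.2 and its highest 209.9. Library Sample_199 was within the 6-month values and the other 4 were below them, with a fold change of -0.57 ± 0.13 (adjusted p = 0.0218, limma).

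L1MC4 varied little at 6 months, from 968 to 1004, and stood at 967, 831, 783, 887 and 822 at 9 months. It fell by 0.22 on the log2 scale (adjusted p = 0.0237, limma), with library Sample_199 just below the lowest 6-month library. The rodent element L1_Mur2 fell by 0.35 (adjusted p = 0.0269, limma), with both lane 8 libraries of 9 months at 925 and 1023, the lane 1 libraries at 694, 675 and 746, and a 6-month range of 977 to 1079. The 3 L1 elements that rose were L1MEg2, L1M3e and L1MEc, all old subfamilies.

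L1MEg2 had the largest fold change of the 27 elements that rose. It was at 104, 136, 118, 134 and 91.9 at 9 months, and at 60.5, 72.2 and 86.8 (lowest, median and highest) at 6 months. The groups did not overlap, and the fold change was 0.66 ± 0.16 (log2, SE; adjusted p = 0.0218, limma). L1M3e rose by 0.39 and L1MEc by 0.29 (adjusted p = 0.0466 and 0.0343, limma).

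Of the 6 young L1Md elements 0 passed in either direction. L1Md_A was at 673 ± 75.6 (SD, n = 6) at 6 months and 656 ± 131 (SD, n = 5) at 9 months, and L1Md_F3 at 1059 ± 44.6 and 987 ± 91.4. The fold changes were -0.05 and -0.11, with adjusted p of 0.799 and 0.247 in limma.

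L1Md_T, also a young L1, and ORR1A4, of the rodent ORR1 group, took up shares of the signal that differed many times between libraries. ORR1A4 held 2.06% and 12.8% of the signal in the lane 8 libraries of 9 months and 0.185%, 0.352% and 0.219% in the lane 1 libraries, against 5.88% to 12.0% at 6 months. L1Md_T held 1.75%, 8.91%, 0.240%, 0.344% and 0.229% at 9 months and 0.429% to 9.61% at 6 months. Over all 8 libraries of lane 1 in the series, ORR1A4 lay between 0.185% and 0.352%, and over all 8 libraries of lane 8 between 2.06% and 12.8%. The lane 1 libraries were of both genotypes, and all but Sample_167, of 3 months, were of 9 months. A low share was not confined to lane 1, since Sample_166, an rTg4510 library of 3 months in lane 4, was at 0.19%.

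Neither element passed, at -3.24 for ORR1A4 and -1.51 for L1Md_T (adjusted p = 0.0552 and 0.403, limma). ORR1A4 was at -0.33 within lane 8 and at -5.26 for lane 1 against lane 7. For this element, the part of age outside lane 8 cannot be told apart from lane.

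CR1 and MIR are families that spread in early mammals or before, CR1 as LINEs and MIR as SINEs. Of the CR1 elements 2 of 10 rose, and of the MIR elements 2 of 4, where 3.18% of all elements rose. In both families the count was 0 without library Sample_189, 0 without library Sample_208 and 0 with lane as a term, and the MIR count was also 0 without library Sample_211. L3b, a CR1 element, was at 3383, 4569, 3678, 4444 and 3826 at 9 months and at 2684, 2882 and 3428 (lowest, median and highest) at 6 months. Library Sample_199 was just inside the 6-month range, and the fold change was 0.40 ± 0.10 (log2, SE; adjusted p = 0.0218, limma). L3 rose by 0.25 (adjusted p = 0.0478, limma). Without library Sample_208, L3b was at 0.36 and L3 at 0.21 (adjusted p = 0.0655 and 0.130, limma).

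MIR3 was at 13480, 15930, 14560, 18330 and 15350 at 9 months and at 11900, 12640 and 13710 at 6 months, and MIRb at 19300, 21090, 18830, 23720 and 20750 against 16830, 17880 and 18950. In both, 1 library of 9 months lay within the 6-month range and library Sample_208 was the highest. The fold changes were 0.28 ± 0.08 for MIR3 and 0.20 ± 0.06 for MIRb (adjusted p = 0.0343 and 0.0419, limma). Without library Sample_208, MIR3 was at 0.22 and MIRb at 0.15, and neither passed (adjusted p = 0.121 and 0.130, limma). L2b, of the equally old L2 family, had a fold change of 0.21 and did not pass (adjusted p = 0.0822, limma), and library Sample_208, at 15160, was above the other 4 (10380 to 11800).

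**Figure D3:**
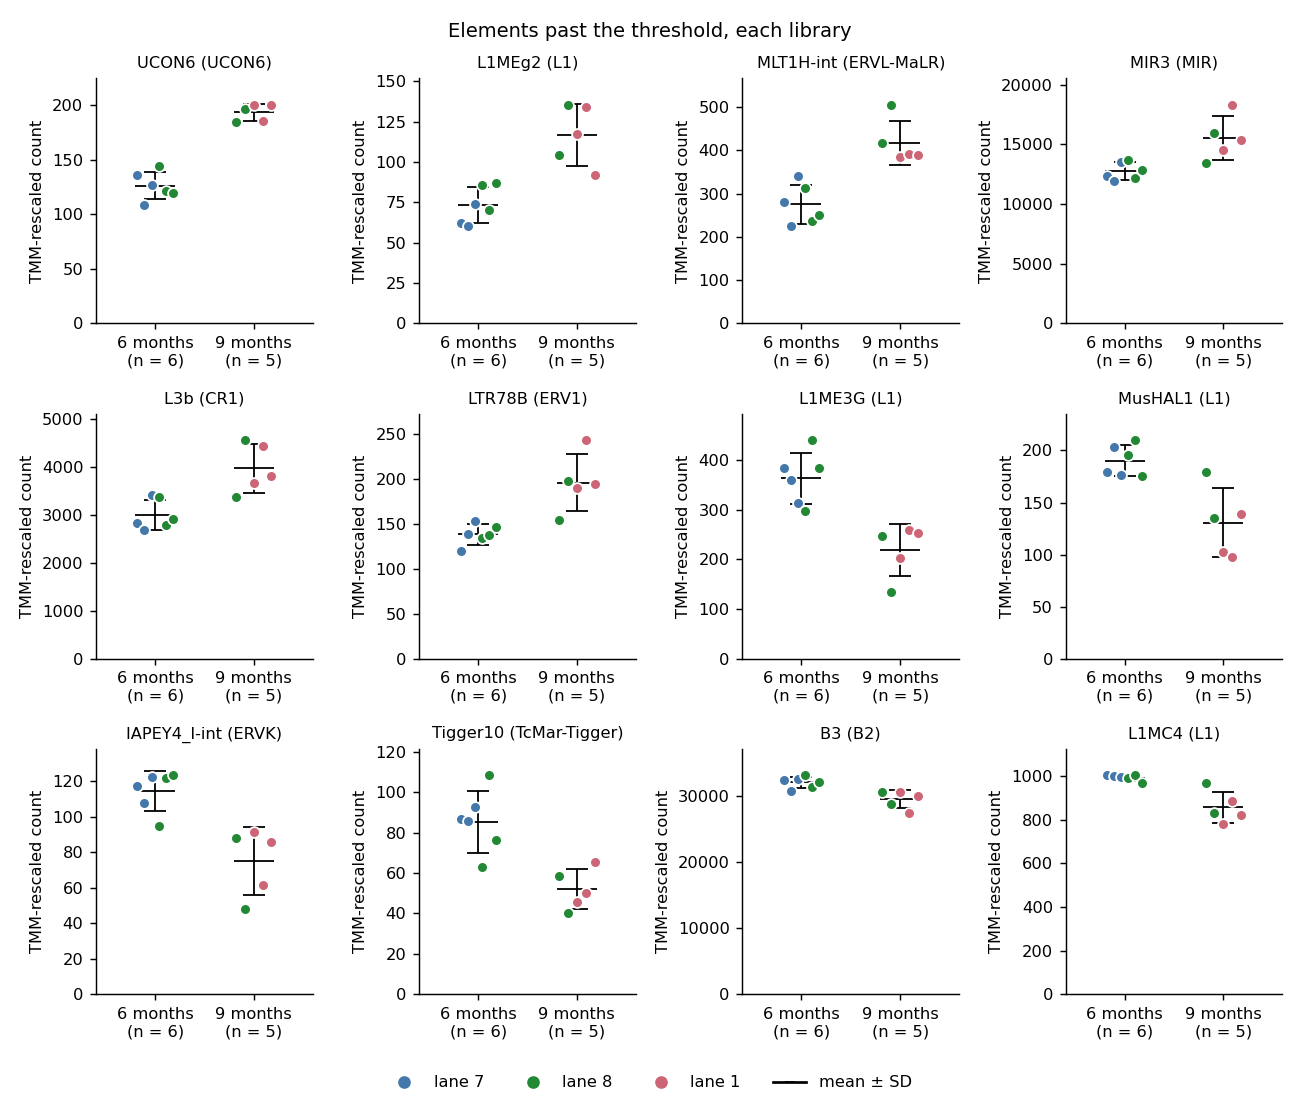
TMM-rescaled counts of 12 elements past the threshold in each library (points, coloured by sequencing lane) at 6 months (n = 6) and 9 months (n = 5), with mean ± SD. UCON6, L1MEg2, MLT1H-int and LTR78B are higher and L1ME3G, IAPEY4_I-int, B3 and L1MC4 lower at 9 months without overlap, while in MIR3, L3b, MusHAL1 and Tigger10 1 library or more lies within the other group's range.

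The rodent SINEs moved by small amounts at high counts. B3, of the B2 family, was at 30560, 28720, 30590, 27430 and 29990 at 9 months and at 30780, 32200 and 33050 (lowest, median and highest) at 6 months. Every 9-month library was below every 6-month library, and the fold change was -0.12 ± 0.03 (log2, SE; adjusted p = 0.0218, limma). Without library Sample_208 it was -0.10, with an adjusted p of 0.0649 (limma). Without both Sample_207 and Sample_208 it was again -0.10, and the adjusted p was 0.0188 (limma). Sample_207 is non-transgenic and enters this comparison only through the spread and scaling shared by all groups. Both libraries were set apart by a ratio that holds B3, so values of B3 without them are no separate test. B3 was the 1 of the 5 B2 elements that passed, and all 5 were negative. They were negative on the deposited scale too, where nearly all fold changes lie lower by a like amount. B2_Mm2 was at -0.11, B2_Mm1t at -0.16 and B3A at -0.06 (adjusted p = 0.0867, 0.112 and 0.206, limma).

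The ratio of B3 to the sum of the other SINEs does not depend on how libraries are scaled. Its log2 value was -3.16 ± 0.03 (SD, n = 6) at 6 months, with a lowest of -3.20 and a highest of -3.13, and it was -3.28, -3.35, -3.25, -3.57 and -3.33 at 9 months. The groups did not overlap, and the difference of -0.19 gave p = 0.00216 in an exact permutation test, the smallest value possible with 462 splits (0.0238 adjusted over 11 values per library). Within lane 8 the difference was -0.12, and for lane 1 against lane 7 it was -0.25, both with an exact p of 0.1, the smallest possible for so few libraries. Library Sample_208 had the lowest ratio to the other SINEs of the series, below the non-transgenic range of -3.52 to -3.31, and without it the difference was -0.14 (exact p = 0.00476). The ratio of B3 to its close relative B3A was 1.51 ± 0.05 and 1.45 ± 0.07 and overlapped between ages (exact permutation p = 0.141). Reads of near relatives such as B3 and B3A may be shared between rows.

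The B1 elements, which the table lists as family Alu, were all 16 positive, with a median of 0.08. On the deposited scale 8 of them were positive and 8 negative, with a median of 0.00, so the direction of the family depends on the scaling. It also differed between lanes: within lane 8, 8 were positive and 8 negative after rescaling, with a median of -0.00, for lane 1 against lane 7 all 16 were positive, with a median of 0.12, and with lane as a term 10 were positive and 6 negative. B1F2, at 5828, 5904, 5803, 6512 and 5979 against a 6-month range of 4876 to 5646, rose by 0.16 (adjusted p = 0.0470, limma), and B1_Mur3 by 0.14 (adjusted p = 0.0498, limma). B1_Mm, the youngest B1 group, was at 5381 ± 638 (SD, n = 6) and 5684 ± 362 (SD, n = 5) and did not pass. ID_B1, of the B4 family, had a fold change of 0.10 and an adjusted p of 0.0678 in limma.

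Among DNA transposons, 3 of 140 rose (2.14%, against 3.18% of all elements) and 2 fell (1.43%, against 2.59%). Tigger10 was at 58.5, 40.4, 45.8, 49.9 and 65.3 at 9 months and at 62.8, 86.2 and 108 (lowest, median and highest) at 6 months. Library Sample_211 was just inside the 6-month range, and the fold change was -0.71 ± 0.20 (log2, SE; adjusted p = 0.0378, limma). Tigger8, of the same TcMar-Tigger family, went the other way, at 0.42 ± 0.12 (adjusted p = 0.0378, limma), with means of 68.97 ± 8.436 (SD, n = 6) and 93.9 ± 19.5 (SD, n = 5). In the hAT-Charlie family MER117 rose by 0.34 and MER3 by 0.30, and Charlie1b fell by 0.26 (adjusted p = 0.0466, 0.0378 and 0.0343, limma). The others that rose were IMPB_01, of class Satellite, by 0.28, and RMER1A, of class Other, by 0.28 (adjusted p = 0.0343 and 0.0420, limma).

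Families were described by the median fold change of their members, beside a median of -0.01 over all 849 elements. L1 stood at -0.10, with 89 of 119 members negative, B2 at -0.12, CR1 at 0.17 and MIR at 0.16. The remaining large families were near the median of all elements, with ERVK at -0.02, ERV1 at 0.01, ERVL at 0.04, ERVL-MaLR at 0.02, hAT-Charlie at -0.02 and TcMar-Tigger at -0.02. Some smaller families lay about as far off as B2, CR1 and MIR. Among them were hAT-Tip100 (16 tested members) at 0.16, TcMar-Tc2 (6) at -0.14, hAT (5) at 0.12 and Satellite (4) at 0.26. On the deposited scale L1 was at -0.18, B2 at -0.20, CR1 at 0.09 and MIR at 0.09, beside an overall median of -0.09. The change of scale moves all fold changes by nearly the same amount, so these distances from the median are no separate evidence.

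B2 had a like median in both lane comparisons and L1 did not. The median of TcMar-Tc2 was alike as well, at -0.25 within lane 8 and -0.25 for lane 1 against lane 7. B2 was at -0.14 within lane 8 and -0.10 for lane 1 against lane 7, and at -0.13 with lane in the model. Within 1 age, however, B2 levels relative to all libraries also differed by lane, except in the median of rTg4510 mice of 9 months. In rTg4510 mice they were -0.035 in lane 7 and 0.069 in lane 8 at 6 months, and -0.11 in lane 1 and -0.10 in lane 8 at 9 months. In non-transgenic mice they were -0.057 in lane 7 and 0.078 in lane 8 (1 library) at 6 months. At 9 months the non-transgenic levels were -0.024 in lane 1 and 0.085 in lane 8. L1 was at -0.01 within lane 8, at -0.20 for lane 1 against lane 7, and at -0.02 with lane in the model. The L1 median in each library, relative to the mean of the 11, was 0.02 to 0.09 at 6 months and 0.02 and 0.05 in the lane 8 libraries of 9 months, but -0.13, -0.17 and -0.05 in the lane 1 libraries. In the non-transgenic mice of 9 months, the L1 median relative to all libraries was -0.13 to 0.04 in the 4 lane 1 libraries and 0.06 and 0.07 in the 2 lane 8 libraries.

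The share of LINEs in the signal, without ORR1A4 and L1Md_T, followed the same split. It was 19.3% and 20.3% in the lane 8 libraries of 9 months and 18.7%, 18.8% and 19.0% in the lane 1 libraries, against 19.5% to 20.4% at 6 months. The difference of -0.57 percentage points had an exact permutation p of 0.0887 and was 0.11 within lane 8. CR1 was at 0.07 within lane 8 and 0.23 for lane 1 against lane 7, and MIR at 0.07 and 0.21. Library Sample_208 was the highest of the 11 for both (0.39 and 0.30 relative to their mean), and without it the CR1 median was 0.06 and the MIR median 0.11.

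**Figure D4:**
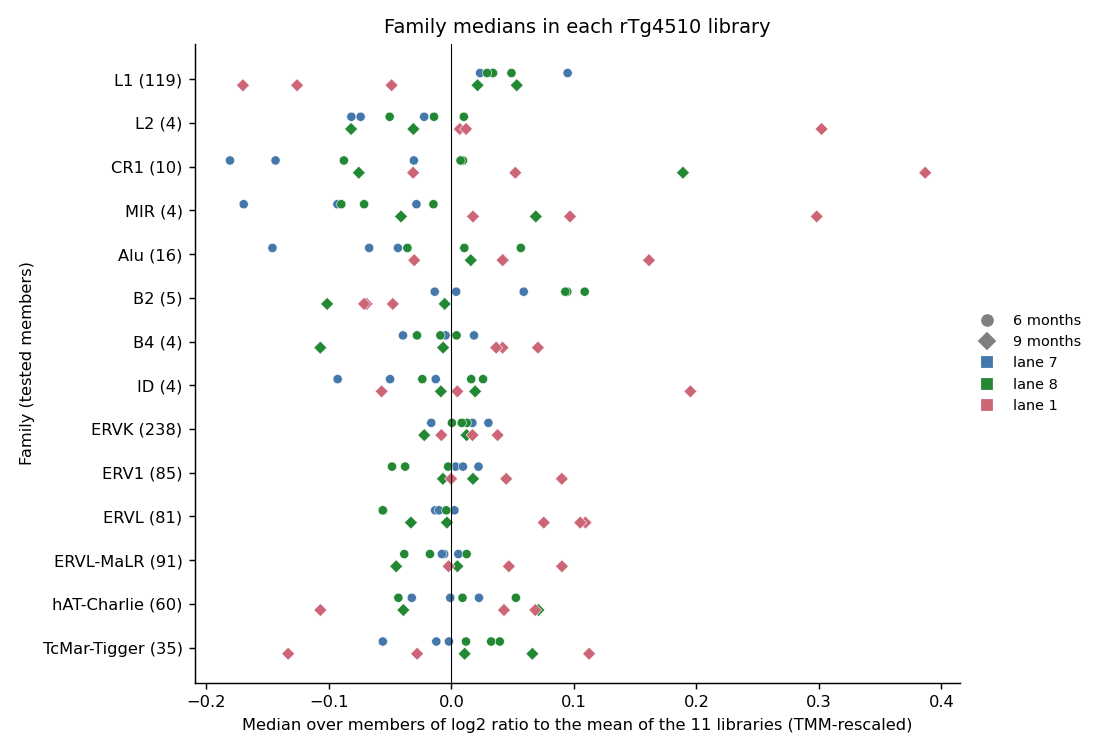
Median over the members of each family (tested members in brackets) of the log2 ratio to the mean of the 11 libraries, for each 6-month library (circles) and 9-month library (diamonds), coloured by sequencing lane. In L1 the lane 1 libraries lie at -0.17 to -0.05 and all others at 0.02 to 0.09, and in CR1, MIR and L2 library Sample_208 is the highest at 0.39, 0.30 and 0.30.

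The comparison within lane 8 (2 against 3 libraries) and that of lane 1 with lane 7 (3 against 3) share no library. Of all 849 elements, 535 (63.02%) had the same direction in both. All 27 elements that rose had a positive fold change in both, and 21 of the 22 that fell had a negative one, with L1M2 at 0.01 within lane 8 as the exception. These libraries also made the calls, so the directions are a description and no separate test. Within lane 8 the groups did not overlap for 21 of the 27 and 15 of the 22, where among all elements 131 (15.4%) were higher and 119 (14.0%) lower without overlap.

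The size of the change was alike in both comparisons for some elements and not for others. UCON6 was at 0.56 and 0.64, IAPEY4_I-int at -0.78 and -0.57, and B3 at -0.13 and -0.14 (lane 8 first). MLT1H-int, at 0.78 and 0.46, and L1ME3G, at -1.02 and -0.59, were farther from 0 within lane 8. MusHAL1, at -0.32 and -0.75, and L1_Mur2, at -0.05 and -0.58, were farther from 0 outside it. Whether these differences exceed the spread between libraries was not tested.

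**Figure D5:**
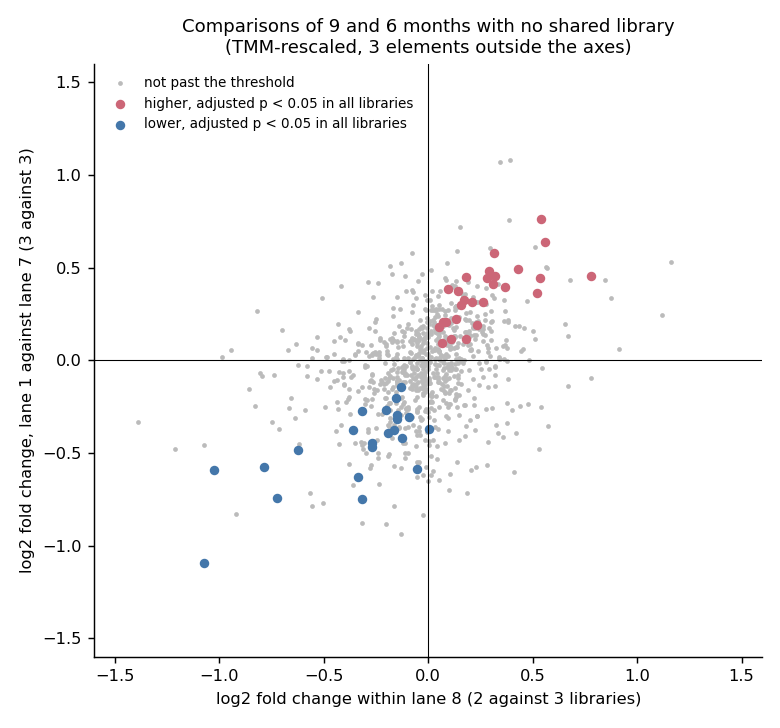
Log2 fold change (TMM-rescaled) within lane 8 on the horizontal axis and for lane 1 against lane 7 on the vertical axis, with 1 point for each of 849 elements (3 lie outside the axes) and elements called over all libraries in colour. The 27 elements that rose lie to the upper right, and 21 of the 22 that fell lie to the lower left.

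Whether the change with age differed between rTg4510 and non-transgenic mice was tested as an interaction in the same limma model. After TMM rescaling 2 of 849 elements passed (0.236%), IAPEY4_I-int and B3, with 147 at an unadjusted p under 0.05. On the deposited scale 1 passed (0.118%), IAPEY4_I-int, with 278 at an unadjusted p under 0.05. Of the non-transgenic libraries of 9 months, 4 ran in lane 1 and 2 in lane 8. Of those of 6 months, 1 ran in lane 6, 4 in lane 7 and 1 in lane 8, so genotypes were not balanced by lane. With lane as a term 0 elements passed on the deposited scale and 3 after rescaling. Whether these 3 include IAPEY4_I-int or B3 is not given here. Without library Sample_205, 188 elements passed on the deposited scale and 6 after rescaling. Without any 1 of libraries Sample_186, Sample_197, Sample_198, Sample_203 and Sample_208, the count was 0 on both scales. Without both Sample_207 and Sample_208, 24 elements passed on the deposited scale and 15 after rescaling.

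IAPEY4_I-int was at 93.2 ± 14.8 (SD, n = 6) in non-transgenic mice of 6 months and at 117 ± 21.3 (SD, n = 6) at 9 months, against 115 ± 11.3 (SD, n = 6) and 75.1 ± 19.2 (SD, n = 5) in rTg4510 mice. The non-transgenic change of 0.31 did not pass (adjusted p = 0.227, limma), and the difference between genotypes was -0.95 ± 0.21 (log2, SE; adjusted p = 0.0234, limma). On the deposited scale that difference was -1.29 (adjusted p = 0.0338, limma). Library Sample_207, at 79.67, was below the mean of 124 ± 12.5 (SD, n = 5) of the other non-transgenic libraries of 9 months. Without both libraries the difference between genotypes was -0.996 (adjusted p = 0.00582, limma), and without Sample_208 alone it was -0.89 (adjusted p = 0.0813, limma).

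B3 was at 27030 ± 399 and 28060 ± 764 in non-transgenic mice (SD, n = 6 each) and at 32030 ± 823 and 29460 ± 1364 in rTg4510 mice (SD, n = 6 and 5). The difference in change was -0.17 ± 0.04 (log2, SE; adjusted p = 0.0234, limma). Both libraries that stood apart lay toward the other genotype at 9 months, Sample_207 at 29590 and Sample_208 at 27430. Without them the 9-month means were 27760 ± 166.5 (SD, n = 5) in non-transgenic and 29970 ± 875 (SD, n = 4) in rTg4510 mice, and the difference in change was -0.13 ± 0.03 (adjusted p = 0.0372, limma). Without Sample_208 alone it was -0.15 (adjusted p = 0.0813, limma). Since a ratio that holds B3 set both libraries apart, these values are no separate test of B3.

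For the other 47 elements called in rTg4510 mice, the difference from the non-transgenic change did not pass. Of the 27 that rose, 15 had a positive change in non-transgenic mice, and of the 22 that fell, 16 had a negative one, with median changes there of 0.01 and -0.08. UCON6, for example, was at 127 ± 14.8 and 145 ± 31.2 in non-transgenic mice (SD, n = 6 each), and the difference between genotypes of 0.44 had an adjusted p of 0.225 in limma.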

How the data were processed

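The authors deposited normalized counts of 1153 repeats in 35 libraries, a signal in which reads are divided by a factor for the library. Per the submitters' processing notes, Trimmomatic, STAR and DESeq2 were used with the mouse build mm10. The sources used here name no versions, no counting program and no repeat annotation, and do not say how reads with several matches were handled. The labels give rRNA-depleted total RNA and stranded paired reads of 76 bases. Reads were recovered from the step of each column, and all values (100%) were whole within 0.01. Pairs of the 11 libraries differed by 2.59 times or more the chi-square that sampling of reads would give.

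Groups follow the titles. The main test was limma 3.58.1 in R 4.3.3 with an intensity trend on log2(value + 1), a pseudocount of 1, in 1 fit of all 35 libraries in 6 groups, two-sided, with Benjamini-Hochberg adjustment over 849 elements and a threshold of 0.05. Fold changes on this scale understate the change of low elements. TMM factors were computed with edgeR 4.0.16 on the recovered reads of tested elements. Values per library were compared with exact two-sided permutation tests over 462 splits, adjusted over 11 values. Alternatives were pseudocounts of 0.5 and 5, no filter and a minimum of 50, the 11 libraries only, edgeR and DESeq2 1.42.0 on recovered reads, array weights, DESeq2 factors, lane as a term, lane 8 only, the genotype of the characteristics, and leaving out each of the 11 libraries. No non-transgenic library was left out alone. Lane 1 against lane 7, and leaving out libraries Sample_207 and Sample_208 together, whose ratios of B3 to B3A lay outside those of the other libraries of their title, were added after seeing the data. The scripts were tested on simulated data.

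Elements named were the 8 largest fold changes each way among called elements whose mean is 50 or more (on the deposited scale, where 0 passed, the 4 smallest p each way), the smallest p of each family or list, and 14 abundant or well known elements. L1MC4, L1M2, L1M3e, L1MEc, LTR48B, MER3, MER117, RMER2, RMER1A, MER76, L3 and B1_Mur3 fall outside that rule and were chosen after their values were seen. The comparison, its elements and its lists were chosen with earlier results of these data known. No sequences are printed, since the references used here hold none of these elements.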

Additional observations from a re-analysis of the deposited data

Results flagged for a closer look

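Within a group, 1 library stood apart from the rest by its gap relative to the group's range in 10 of 132 sets of values examined. Chance gives about 1 in 20 such sets, and the sets are not independent. Levels here are log2 of the TMM-rescaled count + 1 unless they are a share.

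At 6 months, library Sample_198 was low for L1MC4 at 9.92, library Sample_186 for L1Md_F3 at 9.93 and library Sample_196 for MER104 at 6.09. At 9 months, library Sample_203 was low for the share of SINEs, at 45.8%, and high for the shares of ORR1A4, at 12.8%, and of L1Md_T, at 8.91%. The same library was low for B3A, at 13.28, and high for MLT1H-int, at 8.99. Library Sample_208 was high for B1F2, at 12.67, and for IMPB_01, at 12.92. In both of these elements, the other 4 libraries of 9 months still lay above the 6-month libraries.

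The change from 6 to 9 months differed between genotypes by limma's interaction test for IAPEY4_I-int, by -1.29 on the deposited scale and -0.95 after TMM rescaling, and for B3, by -0.17 after TMM rescaling. The groups' own values are given with that comparison.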

How the results depend on the processing

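No paired analysis was possible because the 6-month and 9-month libraries share no replicate number. Depth limits rare elements most: RLTR47 rests on a mean of 15.8 reads per library. On the deposited scale the calls numbered 0, but 7 in a fit of the 11 libraries, 3 with array weights, 154 in lane 8, 30 for lane 1 against lane 7, 1 with the genotype of the characteristics and 2 without libraries Sample_207 and Sample_208. After TMM rescaling they numbered 49, but 19 with no filter, 31 in a fit of the 11 libraries, 30 in edgeR, 85 in DESeq2, 0 with lane as a term, 2 in lane 8, 7 with the characteristics and 23 for lane 1 against lane 7. The genotype difference had 0 calls on the deposited scale with lane as a term, and without libraries Sample_207 and Sample_208 it had 24 there and 15 after rescaling. The cause was not tested. Leaving out 1 of the 11 rTg4510 libraries gave 0 to 2 calls on the deposited scale, 2 to 79 after rescaling, and 0 to 188 and 0 to 6 for the genotype difference. How the genotype difference depends on single non-transgenic libraries was not tested.

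In lane 8, and for lane 1 against lane 7, the differences per library were -238300 and -255200 reads, -0.13 and -0.38 in the authors' factor, and -0.12 and -0.25 in B3 relative to the other SINEs, none of which could pass with so few libraries. Signs turned in lane 8 for LINEs (0.11 percentage points) and ORR1A4 (0.88), and for lane 1 against lane 7 for the typical level (0.0895), SINEs (0.62) and DNA transposons (-0.053). With the characteristics, the typical level was 0.18, B3 relative to the other SINEs -0.053, SINEs 0.060, LTR elements 0.61, DNA transposons -0.24 and ORR1A4 -5.32. Leaving out 1 library gave -0.18 to 0.28 for SINEs, -0.85 to -0.43 for LINEs, 0.25 to 0.48 for LTR elements, -0.042 to 0.12 for DNA transposons and -7.10 to -3.84 for ORR1A4.

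With the characteristics, log2 fold changes turned in sign on the deposited scale for B3 (0.13), IAPEY4_I-int (0.26) and Tigger10 (0.022). After rescaling they turned for B1_Mm (-0.073), B3A (0.031), CYRA11_Mm (0.10), IAPEY4_I-int (0.0895), IAPEz-int (0.00087), L2b (-0.0058), MMERVK10C-int (0.14), ORR1C1-int (0.078), RLTR47 (0.029) and RMER2 (-0.13). CYRA11_Mm (0.015) and L1Md_A (0.0083) turned with lane as a term, L1M2 (0.0058) and L1Md_A (0.10) in lane 8, and L1Md_A (0.052) without library Sample_208, with or without Sample_207. IAPEz-int turned without library Sample_189 (0.0031) or Sample_203 (0.0070), with -0.049 as the lowest value when 1 library is left out.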
